A study of Mus musculus with 12 samples.

Results

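IGF1, the receptors for IGF1 and insulin, and the IGF-binding proteins were described across 4 sorted cell populations of the mouse fetal liver (FL). The members were chosen by gene symbol as *Igf1*, *Igf1r*, *Insr*, and *Igfbp1* to *Igfbp7*, and they are 10 of the 38127 genes in the count files. All mice were of the strain C57BL/6, and the labels name no treatment or transgene. RNA of sorted cells was sequenced, with 3 libraries per population. At embryonic day (E) 14.5 the populations were P2 cells (labelled Ter119-CD45-CD54-CD31-Kit+CD24+), CD324+ cells (labelled Ter119-CD45-CD54+CD31-), and CD31+ cells (labelled Ter119-CD45-CD54+CD31+). The name CD324+ is the study's, and the sample labels describe these libraries by CD54 and CD31 only. The remaining 3 libraries were Ter119-CD45-CD54+CD31- cells of E18.5 FL, which share the surface labels of the CD324+ cells. The study states independent litters for the E14.5 libraries. For the E18.5 libraries no source of the replicates was given, so p-values there measure only the spread between these libraries.

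IGF1 is a circulating growth factor that the adult liver secretes in response to growth hormone. It signals through IGF1R, a receptor tyrosine kinase, and insulin acts through the closely related receptor INSR, which is prominent in hepatocytes. The IGF-binding proteins are secreted carriers that hold IGFs in the circulation or in the tissue, prolong their life, and limit or direct their access to the receptor. IGFBP1 is known as a liver product that insulin represses, IGFBP3 carries most IGF in adult serum, and IGFBP7 binds IGFs only weakly.

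The marker genes of each label were read before the members. Hepatoblast markers (10 genes, among them *Alb* and *Afp*) summed to 75730 to 87280 CPM (counts scaled by library size) in CD324+ libraries and to at most 1026 CPM in CD31+ or P2 libraries. Endothelial markers (10 genes, among them *Pecam1* and *Cdh5*) summed to 10010 to 10700 CPM in CD31+ libraries, and erythroid progenitor markers (10 genes, among them *Klf1* and *Gata1*) to 3352 to 3517 CPM in P2 libraries. Outside their own population, endothelial markers summed to at most 449 CPM in P2 and 75.25 CPM in CD324+ libraries. Erythroid progenitor markers summed to 411 to 659 CPM in CD324+ and 387 to 535 CPM in CD31+ libraries. In CD31+ libraries their median was 11.2% to 16.1% of the P2 mean. Thus each E14.5 population was the highest of the E14.5 populations for the markers of its label, and erythroid transcripts were present in all of them. The E18.5 libraries went beyond theirs. Lung epithelium markers (12 genes, among them *Sftpc*) summed to 21780, 9814, and 9994 CPM in E18.5 replicates 1, 2, and 3 and to at most 250 CPM elsewhere. Of the 11 mesenchymal and stellate markers tested, 10 were higher at E18.5 than in CD324+ cells, from *Pdgfrb* (2.92-fold) to *Col1a1* (34.4-fold), and *Reln* was lower (198 against 1025 CPM). The defining stellate gene *Lrat* was at 0 counts in all 12 libraries. The pathway genes *Insrr*, *Htra1*, *Mmp7*, and *Timp1* were also at 0 counts in all 12, so the 0 of *Lrat* was not read as absence of stellate cells. Mesothelial markers summed to 698 to 1120 CPM at E18.5 and to at most 23.8 CPM elsewhere. The part of these cells in the E18.5 values was not tested.

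A pair of libraries stood apart from the others of their population. In E18.5 replicate 1 the median hepatoblast marker was 0.0839 times the mean of the other E18.5 libraries, and the median lung marker 2.10 times. In P2 replicate 2 the median endothelial marker reached 4.21% of the CD31+ mean, compared with 0.643% and 1.02% in P2 replicates 1 and 3. Fold changes of the members that move by over 1.5 times without such a library are given with and without it.

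**Figure D1:**
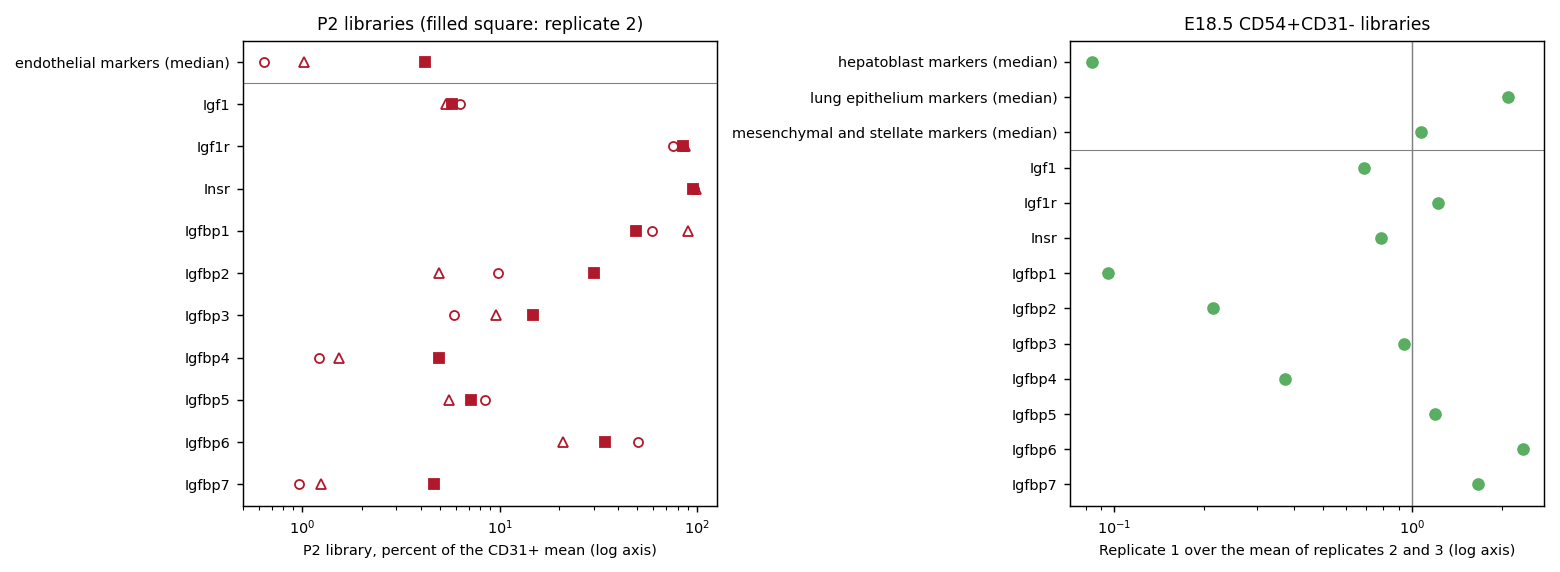
Left, each P2 library as a percentage of the mean of the 3 CD31+ libraries (log axis), for the median of 10 endothelial markers and for the 10 genes. Right, E18.5 replicate 1 divided by the mean of E18.5 replicates 2 and 3 (log axis), for marker medians and the 10 genes. *Igfbp4* and *Igfbp7* of P2 replicate 2 sit near its endothelial markers, at 4.96% and 4.64% beside 4.21%, and *Igfbp1* of E18.5 replicate 1 sits near its hepatoblast markers, at 0.0953 beside 0.0839.

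In the genome, 4 of the 7 Igfbp genes lie as neighbouring pairs whose 3′ ends face each other, with no annotated gene in between (GENCODE vM21, GRCm38). *Igfbp1* (chromosome 11, plus strand, 7197782 to 7202546) and *Igfbp3* (minus strand, 7206086 to 7213923) are separated by 3539 bp. *Igfbp2* (chromosome 1, plus strand, 72824503 to 72852474) and *Igfbp5* (minus strand, 72857932 to 72874884) are separated by 5457 bp. The genes of each pair differed in which E14.5 population had the highest level, CD324+ for *Igfbp1* and *Igfbp2* and CD31+ for *Igfbp3* and *Igfbp5*, and for this reason the 250 bases before the RefSeq start of these 4 genes are printed (build GRCm38.p6), 5′ to 3′ on the strand of the gene. Capitals mark the motif letters found.
Igfbp1, chr11:7197537-7197786, plus strand: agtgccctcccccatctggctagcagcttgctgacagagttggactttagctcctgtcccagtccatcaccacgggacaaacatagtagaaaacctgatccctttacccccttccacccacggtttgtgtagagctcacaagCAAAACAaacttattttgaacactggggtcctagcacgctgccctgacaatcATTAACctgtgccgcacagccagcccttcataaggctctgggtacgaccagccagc
Igfbp3, chr11:7213924-7214173, minus strand: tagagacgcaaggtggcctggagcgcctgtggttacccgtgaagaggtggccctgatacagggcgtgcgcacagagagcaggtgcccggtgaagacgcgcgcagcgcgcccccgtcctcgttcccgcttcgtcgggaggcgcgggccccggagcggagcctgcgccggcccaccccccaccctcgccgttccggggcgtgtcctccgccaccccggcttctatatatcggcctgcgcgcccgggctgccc
Igfbp2, chr1:72824230-72824479, plus strand: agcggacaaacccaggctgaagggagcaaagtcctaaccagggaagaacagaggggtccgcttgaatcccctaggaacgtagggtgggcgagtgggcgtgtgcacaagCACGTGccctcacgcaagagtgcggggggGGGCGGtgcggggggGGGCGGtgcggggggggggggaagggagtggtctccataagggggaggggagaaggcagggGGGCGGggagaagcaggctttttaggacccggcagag
Igfbp5, chr1:72874866-72875115, minus strand: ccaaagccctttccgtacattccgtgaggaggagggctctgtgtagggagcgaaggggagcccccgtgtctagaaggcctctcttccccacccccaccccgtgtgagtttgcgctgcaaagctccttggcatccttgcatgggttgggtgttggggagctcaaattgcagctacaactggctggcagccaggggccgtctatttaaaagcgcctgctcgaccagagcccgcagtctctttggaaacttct

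The motifs searched, on both strands, were TATAAA of the core promoter, GTTAAT of HNF1 sites, GTAAACA of forkhead sites, CAAAACA of the insulin response element, AGATAA of sites for erythroid factors of the GATA family, GGGCGG of GC-boxes, and CACGTG of E-boxes. The *Igfbp1* window held the insulin response core, which starts 108 bases before the start site, and the HNF1 core on the minus strand, printed as ATTAAC and starting 56 bases before it. Among the 32851 RefSeq windows of the same length, 5.56% held the insulin response core and 6.43% the HNF1 core. The *Igfbp2* window held 3 GC boxes and 1 E-box (32.7% and 6.02% of all windows), and the windows of *Igfbp3* and *Igfbp5* held none of these letters. GC content was 53.2% for *Igfbp1*, 73.2% for *Igfbp3*, 67.2% for *Igfbp2*, and 58.8% for *Igfbp5*, compared with a median of 52.4% over all windows. These matches describe letters and not binding sites. Windows were found for 9 of the 10 members.

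Levels below are CPM, the count divided by the library total scaled with edgeR's TMM factors over all 12 libraries, and folds come from raw counts in edgeR's quasi-likelihood test, with p adjusted over all genes tested by Benjamini-Hochberg (called at an adjusted p below 0.05). In bulk RNA of sorted cells, fewer cells of a type and less RNA per cell cannot be told apart. The P2, CD324+, and CD31+ comparisons share libraries, and the E18.5 comparison shares the CD324+ libraries with them, so their values are given side by side and not as independent tests.

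**Figure D2:**
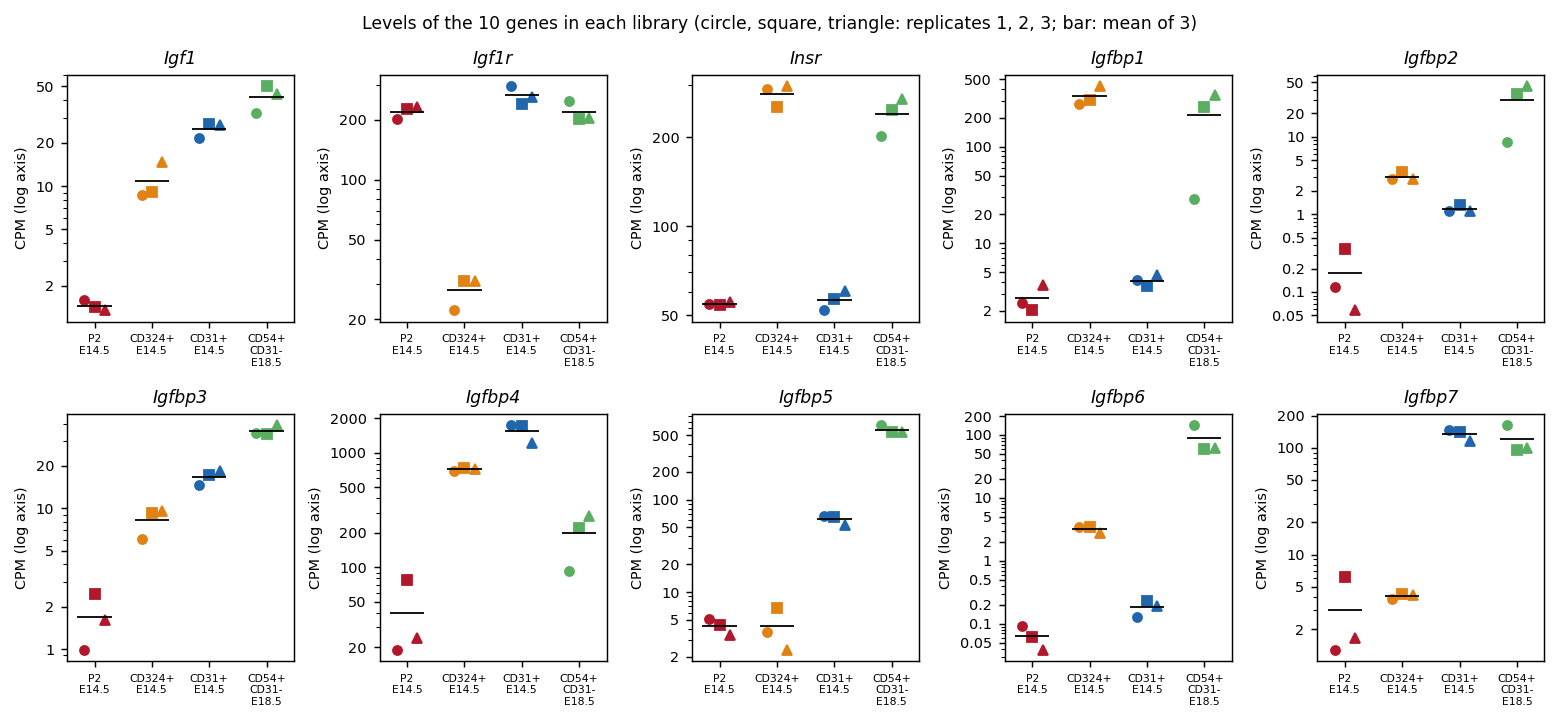
CPM of the 10 genes in each of the 12 libraries (log axis, with its own range for each gene), by population; circles, squares, and triangles are replicates 1, 2, and 3, and bars are means of 3. *Igfbp1*, *Insr*, and *Igf1r* each split the 3 E14.5 populations into a high and a low set, and *Igf1*, *Igfbp2*, *Igfbp3*, *Igfbp5*, and *Igfbp6* had their highest mean at E18.5.

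*Igf1*, the ligand, was lowest in P2 cells and highest at E18.5. It had 1.58, 1.44, and 1.35 CPM in P2 replicates 1 to 3, 8.60, 9.13, and 14.6 CPM in CD324+ cells, 21.7, 27.2, and 26.5 CPM in CD31+ cells, and 32.4, 50.2, and 43.8 CPM in E18.5 cells. No library of any population overlapped those of another. Compared with CD324+ cells, the P2 mean was 7.42-fold lower (log2 fold change -2.89 ± 0.224 SE, edgeR adjusted p = 9.91e-07), and compared with CD31+ cells it was 17.3-fold lower (-4.11 ± 0.230, edgeR adjusted p = 1.39e-07). CD31+ cells exceeded CD324+ cells 2.33-fold (1.22 ± 0.199, edgeR adjusted p = 0.000325), so the hepatoblast-bearing population was not the E14.5 population with the highest *Igf1* level. From E14.5 to E18.5 the CD54+CD31- cells rose 3.90-fold (1.96 ± 0.260, edgeR adjusted p = 0.000555), and 2.12 on the log2 scale without E18.5 replicate 1. The median hepatoblast marker in the E18.5 libraries was between 4.66% and 45.9% of its CD324+ mean, with 5 of the 10 markers called lower and 5 not called. Within E18.5, replicate 1 had the lowest hepatoblast markers, at a median of 0.0839 times the mean of the others. Its *Igf1* was also the lowest, but at 0.689 times, and the median mesenchymal and stellate marker was at 1.07 times. Of the macrophage markers, *Mrc1*, which sinusoidal endothelium also expresses, was higher in CD31+ than in CD324+ cells (1415 against 27.8 CPM), and the means of all the others were lower there.

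The receptor genes *Igf1r* and *Insr* divided the E14.5 populations in opposite ways. *Igf1r* had 202, 227, and 232 CPM in P2 cells, 297, 241, and 262 CPM in CD31+ cells, and only 22.1, 31.2, and 31.2 CPM in CD324+ cells. *Insr* had 290, 252, and 298 CPM in CD324+ cells, compared with 54.4, 54.0, and 55.5 CPM in P2 cells and 51.8, 56.6, and 60.4 CPM in CD31+ cells. Thus the CD324+ cells were low for the IGF1 receptor and high for the insulin receptor, and both other populations were the reverse. *Igf1r* was 7.82-fold higher in P2 than in CD324+ cells (log2 fold change 2.97 ± 0.150 SE, edgeR adjusted p = 3.96e-08) and 9.46-fold higher in CD31+ than in CD324+ cells (3.24 ± 0.152, edgeR adjusted p = 2.65e-08). *Insr* was 5.13-fold lower in P2 than in CD324+ cells (-2.36 ± 0.0971, edgeR adjusted p = 8.21e-09) and 4.98-fold lower in CD31+ than in CD324+ cells (-2.32 ± 0.0968, edgeR adjusted p = 1.15e-08).

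Between P2 and CD31+ cells neither receptor passed the test. The P2 libraries lay below every CD31+ library for *Igf1r* (log2 fold change -0.28 ± 0.139 SE, edgeR adjusted p = 0.0954), and the populations overlapped for *Insr* (-0.04 ± 0.0927, edgeR adjusted p = 0.691). These calls depended on scaling: with the library factors of the authors, *Igf1r* was lower in P2 cells by -0.66 (edgeR adjusted p = 0.00169) and *Insr* by -0.42 (edgeR adjusted p = 0.0033), where the median of all genes stood at -0.501. The *Igf1r* that the CD324+ libraries had, at most 14.2% of the P2 mean, stood beside erythroid progenitor markers at a median of 10.5%, 19.4%, and 13.0% of their P2 mean in the same libraries. Endothelial markers were at 0.329% to 0.507% of their CD31+ mean there. The part of erythroid cells in the CD324+ value was not tested.

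At E18.5 the CD54+CD31- libraries held transcripts of both receptors. *Igf1r* reached 248, 202, and 204 CPM, 7.74-fold above the E14.5 CD324+ mean (log2 fold change 2.95 ± 0.179 SE, edgeR adjusted p = 2.87e-05), and overlapped the P2 libraries. *Insr* had 202, 247, and 269 CPM, which overlapped the CD324+ libraries and did not pass the test (-0.23 ± 0.142, edgeR adjusted p = 0.192). Erythroid progenitor markers were at 1.17% to 4.16% of their P2 mean in these libraries, and endothelial markers at 2.10% to 2.83% of their CD31+ mean, whereas *Igf1r* stood at 75.8% to 93.2% of its CD31+ mean. Lung markers summed to 9814 to 21780 CPM there, mesenchymal and stellate markers to 4281 to 4513 CPM, and mesothelial markers to 698 to 1120 CPM. *Igf1r* was highest in replicate 1, at 1.22 times the mean of the others, beside lung markers at 2.10 times. The part of these cells in the *Igf1r* value was not tested.

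Within a library, the ratio of *Igf1r* to *Insr* per kilobase of exon does not depend on the library factor. It was 3.04, 3.43, and 3.42 in P2 cells and 4.68, 3.48, and 3.55 in CD31+ cells, so that every library of these populations had more *Igf1r* than *Insr* transcript per length. In CD324+ cells it was 0.0623, 0.101, and 0.0856, and in E18.5 cells 1.01, 0.669, and 0.619. The mean log2 ratios were 1.72 ± 0.0989 (SD, n = 3) in P2, 1.95 ± 0.239 (SD, n = 3) in CD31+, -3.62 ± 0.355 (SD, n = 3) in CD324+, and -0.42 ± 0.377 (SD, n = 3) in E18.5 cells. Only the P2 and CD31+ ranges came close to each other, and E18.5 replicate 1, the library with few hepatoblast transcripts, had the highest ratio of its population.

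**Figure D3:**
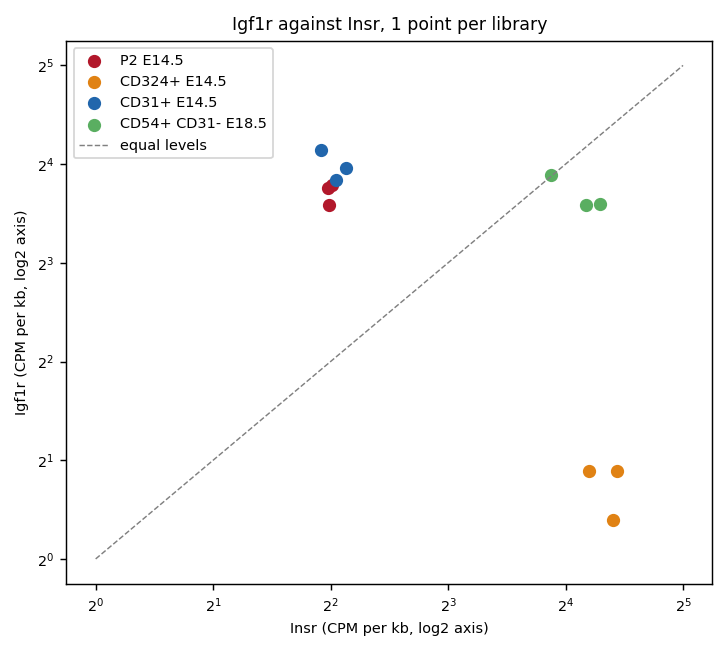
*Igf1r* against *Insr* in each of the 12 libraries, both as CPM per kilobase of exon on log2 axes, with the line of equal levels. P2 and CD31+ libraries share the upper left, CD324+ libraries sit at the lower right with ratios between 0.0623 and 0.101, and E18.5 libraries lie near the line, between 0.619 and 1.01.

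*Igfbp1*, the insulin-repressed liver product, was highest in the hepatoblast-bearing CD324+ cells at E14.5. It had 277, 309, and 430 CPM in CD324+ cells, 2.43, 2.02, and 3.72 CPM in P2 cells, and 4.13, 3.58, and 4.66 CPM in CD31+ cells. CD324+ cells thus stood 124-fold above P2 cells (log2 fold change -6.95 ± 0.278 SE for P2 against CD324+, edgeR adjusted p = 6.77e-09) and 82.0-fold above CD31+ cells (-6.36 ± 0.268, edgeR adjusted p = 1.23e-08). The low values in the other populations resembled those of the hepatoblast list as a share: *Igfbp1* in P2 libraries was 0.719%, 0.596%, and 1.10% of its CD324+ mean beside a median hepatoblast marker of 0.868%, 0.944%, and 0.885%, and in CD31+ libraries it was 1.22%, 1.06%, and 1.38% beside 1.53%, 1.22%, and 1.18%. The difference between P2 and CD31+ cells passed narrowly with overlapping libraries (-0.59 ± 0.238, edgeR adjusted p = 0.0435), and it did not pass without P2 replicate 1 (0.116), P2 replicate 2 (0.134), CD31+ replicate 1 (0.0816), or CD31+ replicate 3 (0.129), nor with all 12 libraries (0.443), only the 6 libraries compared (0.0699), or DESeq2's size factors (0.0619) in edgeR, all as adjusted p.

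At E18.5 *Igfbp1* split the libraries, with 29.0, 261, and 348 CPM. Replicate 1 was 10.5-fold below the mean of the others, as its hepatoblast markers were 11.9-fold below theirs, and replicates 2 and 3 lay in or near the CD324+ range. As a share of the CD324+ mean, *Igfbp1* was at 8.56%, 77.0%, and 103% in replicates 1 to 3, above the median hepatoblast marker at 4.66%, 37.7%, and 45.9%. The fold against E14.5 did not pass the test with that library (log2 fold change -0.67 ± 0.760 SE, edgeR adjusted p = 0.453) or without it (-0.15 ± 0.196, edgeR adjusted p = 0.495).

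*Igfbp2*, a binding protein abundant in fetal tissues, was low at E14.5 and rose at E18.5. It had 2.83, 3.46, and 2.81 CPM in CD324+ cells, 1.10, 1.32, and 1.09 CPM in CD31+ cells, and 0.115, 0.354, and 0.0578 CPM in P2 cells, the last from 5, 17, and 3 counts. At E18.5 it had 8.59, 35.1, and 45.2 CPM, so that even the library with few hepatoblast transcripts exceeded all of E14.5, and the E18.5 mean was 9.77-fold above CD324+ cells (log2 fold change 3.29 ± 0.594 SE, edgeR adjusted p = 0.00235). Without replicate 1 the fold was 3.73 on the log2 scale (edgeR adjusted p = 1.56e-07). P2 cells were 17.1-fold below CD324+ cells (-4.10 ± 0.503, edgeR adjusted p = 3.25e-05, and -5.12 without P2 replicate 2) and 6.60-fold below CD31+ cells (-2.72 ± 0.496, edgeR adjusted p = 0.000546, and -3.75 without P2 replicate 2). CD31+ cells were below CD324+ cells (-1.37 ± 0.419, edgeR adjusted p = 0.0147), a call lost without CD324+ replicate 2 (edgeR adjusted p = 0.0511).

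*Igfbp3*, the main serum carrier of the adult, had the same order of populations as *Igf1*. Its levels were 0.987, 2.48, and 1.62 CPM in P2, 6.03, 9.28, and 9.62 CPM in CD324+, 14.6, 17.3, and 18.4 CPM in CD31+, and 34.2, 33.8, and 39.0 CPM in E18.5 cells. No populations overlapped. It was 4.89-fold lower in P2 than in CD324+ cells (log2 fold change -2.29 ± 0.303 SE, edgeR adjusted p = 5.75e-05) and 9.86-fold lower than in CD31+ cells (-3.30 ± 0.308, edgeR adjusted p = 3.93e-06). CD31+ cells exceeded CD324+ cells 2.02-fold (1.01 ± 0.277, edgeR adjusted p = 0.00844), and E18.5 cells exceeded CD324+ cells 4.29-fold (2.10 ± 0.195, edgeR adjusted p = 0.000117). E18.5 replicate 1 was 0.938 times the mean of the other E18.5 libraries, so this gene did not share the drop of its convergent neighbour *Igfbp1* in that library.

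*Igfbp4*, whose product mostly inhibits IGF action until the protease PAPPA cleaves it, was highest in CD31+ cells. CD31+ cells had 1743, 1707, and 1212 CPM, CD324+ cells 699, 735, and 715 CPM, and P2 cells 19.0, 77.1, and 24.0 CPM. The P2 library that stood apart carried most of the P2 signal, and its share of the CD31+ mean, 4.96%, stood beside its endothelial markers at 4.21%, while replicates 1 and 3 had 1.22% and 1.54% beside 0.643% and 1.02%. P2 cells were 38.8-fold below CD31+ cells (log2 fold change -5.28 ± 0.509 SE, edgeR adjusted p = 5.05e-06) and 17.9-fold below CD324+ cells (-4.16 ± 0.483, edgeR adjusted p = 2.11e-05). Without P2 replicate 2 these were -6.17 and -5.06. CD31+ cells were 2.17-fold above CD324+ cells without overlap (1.12 ± 0.428, edgeR adjusted p = 0.0407), but this call was lost with DESeq2 (0.0643), with all 12 libraries in the edgeR model (0.0699), and in 5 of the 6 edgeR fits that left out a CD31+ or CD324+ library (0.0863 to 0.0968, every library but CD31+ replicate 3).

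*Igfbp4* was the only member called lower in the E18.5 than in the E14.5 CD54+CD31- cells, with 93.4, 220, and 280 CPM at E18.5. Every E18.5 library was below every CD324+ library, and the mean was 3.62-fold lower (log2 fold change -1.86 ± 0.379 SE, edgeR adjusted p = 0.00411, and -1.52 without E18.5 replicate 1). Replicate 1 was again the lowest, at 0.374 times the mean of the others. As a share of the CD324+ mean, *Igfbp4* was at 13.0%, 30.7%, and 39.1% in E18.5 replicates 1 to 3. The median hepatoblast marker was at 4.66%, 37.7%, and 45.9% in the same libraries. The part of hepatoblast content in the lower *Igfbp4* level was not tested.

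*Igfbp5*, a binding protein of mesenchymal and matrix-rich tissues, showed the greatest rise of the 10 genes at E18.5. It had 3.71, 6.64, and 2.37 CPM in CD324+ cells and 642, 542, and 538 CPM in E18.5 cells, a 136-fold higher mean (log2 fold change 7.09 ± 0.440 SE, edgeR adjusted p = 3.1e-05, and 7.02 without E18.5 replicate 1). P2 cells had 5.17, 4.35, and 3.39 CPM and overlapped CD324+ cells (0.03, edgeR adjusted p = 0.933). CD31+ cells had between 52.7 and 65.9 CPM, 14.5-fold above CD324+ cells (3.86 ± 0.322, edgeR adjusted p = 2.12e-06) and 14.2-fold above P2 cells (-3.83 ± 0.318 for P2 against CD31+, edgeR adjusted p = 1.72e-06). Its level in P2 cells, at 8.47%, 7.13%, and 5.55% of the CD31+ mean, did not follow the endothelial markers, which were highest in P2 replicate 2. Its convergent neighbour *Igfbp2* was higher in CD324+ than in CD31+ cells, the reverse of *Igfbp5*.

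*Igfbp6*, which binds IGF2 in preference to IGF1, was low at E14.5. P2 libraries had 4, 3, and 2 counts (0.0919, 0.0624, and 0.0385 CPM), CD31+ libraries 7, 13, and 12 counts (0.126, 0.232, and 0.190 CPM), and CD324+ libraries 122, 110, and 111 counts (3.45, 3.46, and 2.74 CPM). CD324+ cells thus stood 48.9-fold above P2 (log2 fold change -5.61 ± 0.425 SE for P2 against CD324+, edgeR adjusted p = 8.31e-07) and 17.4-fold above CD31+ cells (-4.12 ± 0.368 for CD31+ against CD324+, edgeR adjusted p = 3.64e-06). The P2 and CD31+ difference (-1.49 ± 0.466, edgeR adjusted p = 0.014) rested on these few counts and was lost without P2 replicate 3 (edgeR adjusted p = 0.0573) and with all 12 libraries in the model (edgeR adjusted p = 0.0771). At E18.5 the gene had 144, 59.6, and 62.7 CPM, 27.6-fold above CD324+ cells (4.79 ± 0.415, edgeR adjusted p = 9.04e-05, and 4.25 without E18.5 replicate 1). Replicate 1 was the highest, at 2.35 times the mean of the others, beside mesothelial markers at 1.25 times, lung markers at 2.10 times, and mesenchymal markers at 1.07 times.

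*Igfbp7*, the weak IGF binder of vessels and basement membrane, marked CD31+ and E18.5 cells. It had 145, 140, and 115 CPM in CD31+ cells, 163, 95.5, and 100 CPM in E18.5 cells, 3.82, 4.28, and 4.22 CPM in CD324+ cells, and 1.29, 6.18, and 1.66 CPM in P2 cells. CD31+ and E18.5 libraries overlapped, although endothelial markers in the E18.5 libraries were at 2.10% to 2.83% of their CD31+ mean. CD31+ cells were 32.4-fold above CD324+ cells (log2 fold change 5.02 ± 0.490 SE, edgeR adjusted p = 7.1e-06) and 43.7-fold above P2 cells (-5.45 ± 0.499 for P2 against CD31+, edgeR adjusted p = 3.45e-06, and -6.49 without P2 replicate 2), and E18.5 cells were 29.1-fold above CD324+ cells (4.86 ± 0.253, edgeR adjusted p = 2.07e-05). P2 replicate 2, with the endothelial transcripts, decided the comparison with CD324+ cells: the difference did not pass with it (-0.43 ± 0.466, edgeR adjusted p = 0.429) and P2 cells were lower without it (-1.47 ± 0.171, edgeR adjusted p = 1.24e-05). Of the exon bases of *Igfbp7*, 7.03% overlap those of *Polr2b* on the opposite strand, and whether the counting used strand is not given in the sources used here.

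Per kilobase of exon, *Igfbp1* to *Igfbp7* summed to 8.29, 25.7, and 10.4 CPM per kb in P2 replicates 1, 2, and 3, the highest being the library with endothelial transcripts. The sums were 395 ± 53.8 CPM per kb in CD324+ cells, 481 ± 80.9 in CD31+ cells, and 486 ± 66.3 in E18.5 cells (SD, n = 3 each). The last 3 populations overlapped in this sum and differed in its make-up. In CD324+ cells *Igfbp1* held 55.7 ± 5.55% and *Igfbp4* 41.5 ± 5.16% (SD, n = 3). In CD31+ cells *Igfbp4* held 72.9 ± 1.91% and *Igfbp7* 23.0 ± 1.28%. At E18.5 no gene dominated in every library: *Igfbp1* held 4.46% to 40.9%, *Igfbp7* 21.1 ± 9.17%, *Igfbp5* 20.1 ± 4.57%, *Igfbp6* 10.1% to 30.3% (highest in replicate 1), and *Igfbp4* 8.95 ± 3.49%. The small P2 sum was mainly *Igfbp4*, at 57.4 ± 9.19%. Exon length mattered for this make-up. Without length correction, the long gene *Igfbp5* held 46.4% of the E18.5 sum. In CD324+ cells *Igfbp4* then exceeded *Igfbp1* (716 against 339 CPM), the reverse of the order per kilobase. In CD31+ cells *Igfbp7* had 133 CPM beside 1554 CPM of *Igfbp4*. *Igf1* at 4.25 ± 0.913 CPM per kb was far below the summed binding proteins of the same E18.5 libraries.

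**Figure D4:**
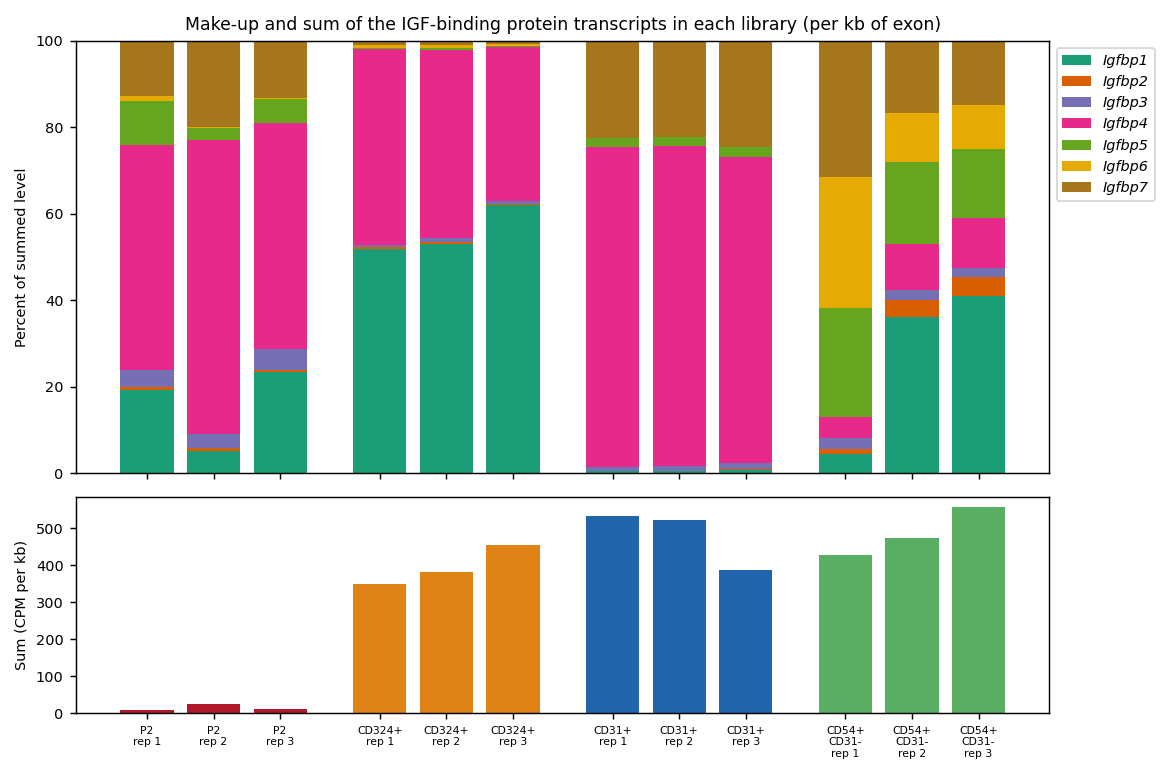
Top, percentage of the summed *Igfbp1* to *Igfbp7* level (CPM per kilobase of exon) held by each gene in each of the 12 libraries. Bottom, the sum itself in CPM per kb, with P2 libraries between 8.29 and 25.7 and all others at or above 350. CD324+ bars are mainly *Igfbp1* and *Igfbp4*, CD31+ bars *Igfbp4* and *Igfbp7*, and E18.5 replicate 1 has the smallest *Igfbp1* share of its population, 4.46%.

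P2 cells against CD324+ cells, the comparison of *Kit*+CD24+ cells with the epithelial population, showed less *Igf1*, *Insr*, and *Igfbp1*, 2, 3, 4, and 6 in P2 cells and more *Igf1r*. Of the 10 members 1 was called higher, 7 lower, and 2 (*Igfbp5* and *Igfbp7*) were not called, where 34.4% of all 15461 genes tested were called higher, 35.8% lower, and 70.1% either way. The median log2 fold change was -2.63 over the members and 0.0075 over all genes. With the library factors of the authors, the share of higher calls among all calls went from 49.0% to 38.2% and the median of all genes to -0.275, and again 1 member was called higher and 7 lower.

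Other genes of the pathway, from lists of 54 genes, were read in the same fit. Of 45 tested, 14 were higher, 16 lower, and 15 not called in P2 cells. *Igf2*, the fetal growth factor, was 74.7-fold lower (160 ± 33.8 against 11930 ± 524 CPM, SD, n = 3), as were *Igf2r*, the receptor that clears IGF2 (10.9-fold), and *Igfals*, a partner of the IGFBP3 complex (80.8-fold). *Ghr*, the growth hormone receptor, was 25.1-fold lower, the adaptor gene *Irs1* 46.4-fold, and *Grb10*, an imprinted inhibitor of both receptors, 5.43-fold. *Irs2* was 1.38-fold lower (edgeR adjusted p = 0.0385). Of the transducers, *Stat5a* (3.20-fold) and *Jak2* (2.81-fold) were higher in P2 cells, with *Socs2*, a feedback inhibitor of growth hormone signalling (4.87-fold). The inhibitor gene *Grb14* (93.0-fold), the phosphatase gene *Ptprf* (55.9-fold), and *Foxo1* (3.42-fold) were lower. In the list of PI3K, AKT, FOXO, and mTOR genes 10 of 19 were higher and 2 lower, and in that of receptor adaptors and regulators 0 of 11 were higher and 6 lower.

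P2 cells against CD31+ cells showed less *Igf1* and less of all 7 binding proteins in P2 cells, while both receptors were not called. That made 8 of 10 members lower and 0 higher, against 39% of all genes lower, 34.6% higher, and 73.6% either way. The median log2 fold change was -3.01 over the members and -0.121 over all genes. With the authors' library factors the share of higher calls among all calls went from 47.0% to 33.9%, the median of all genes to -0.501, and all 10 members were called lower. Other settings called fewer members lower. There were 7 with DESeq2's size factors in edgeR, 6 with all 12 libraries in 1 fit, and 6 of 9 tested with only the 6 libraries compared. Of the 45 other pathway genes tested, 16 were higher, 20 lower, and 9 not called. *Stc1* (24.4-fold) and *Stc2* (12.3-fold), whose products inhibit the proteases PAPPA and PAPPA2, were lower in P2 cells, with the metalloprotease genes *Adamts1* (log2 fold change -5.35) and *Adam12* (30.4-fold), *Ptprf* (17.7-fold), *Igf2* (10.9-fold), *Ghr* (10.2-fold), *Igf2r* (2.97-fold), *Grb10* (1.80-fold), and *Irs1* (1.59-fold). Higher in P2 cells were *Irs2* (3.93-fold), *Enpp1*, an ectoenzyme that binds the insulin receptor (6.97-fold), the PI3K regulatory subunit gene *Pik3r2* (5.73-fold), and *Stat5a* (5.52-fold). *Igfals* and *Pappa* were at or below 0.505 CPM in every library of both populations and were not called.

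CD31+ cells against CD324+ cells separated all 10 members. *Igf1*, *Igf1r*, *Igfbp3*, *Igfbp4*, *Igfbp5*, and *Igfbp7* were higher in the endothelial population, and *Insr*, *Igfbp1*, *Igfbp2*, and *Igfbp6* were lower. These 6 higher and 4 lower calls stand against 31.8% of all genes higher, 33.5% lower, and 65.4% either way, and the median log2 fold change was 1.07 over the members and -0.0236 over all genes. Deviations of same-numbered libraries of these populations correlated at 0.342, 0.263, and 0.127. With the replicate number as a block the members again gave 6 higher and 4 lower. Of 45 other pathway genes tested, 15 were higher, 22 lower, and 8 not called. In the list of IGFBP proteases and their inhibitors 5 of 6 were higher, *Stc2* (46.9-fold), *Stc1* (26.2-fold), *Adam12* (18.8-fold), *Adamts1* (15.8-fold), and *Mmp2* (2.28-fold), and *Pappa* was lower (7.57-fold, from 1.18 ± 0.535 CPM in CD324+ cells). In the list of receptor adaptors and regulators 9 of 11 were lower, among them *Irs1* (29.2-fold), *Grb14* (11.5-fold), *Enpp1* (8.78-fold), *Irs2* (5.41-fold), *Ptprf* (3.16-fold), and *Grb10* (3.02-fold). *Igf2* (6.84-fold), *Igf2r* (3.67-fold), *Igfals* (69.6-fold), and *Ghr* (2.47-fold) were lower too, and *Socs2* was higher (10.1-fold).

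**Figure D5:**
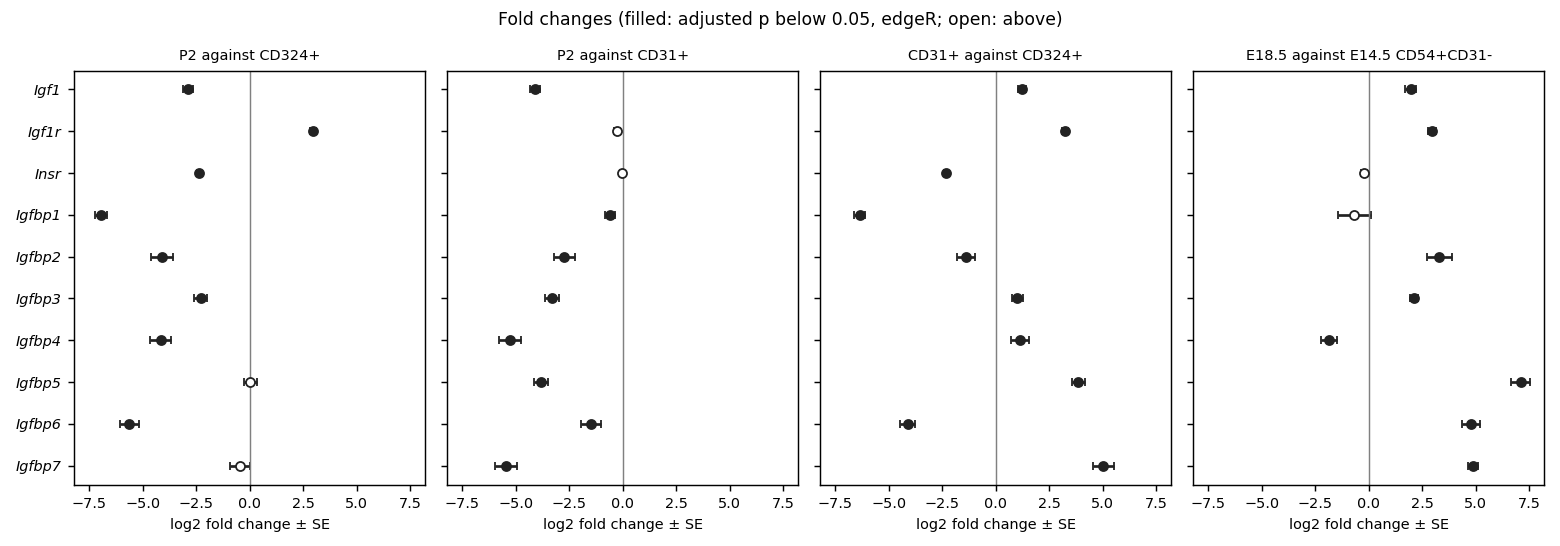
Log2 fold change ± SE of the 10 genes in the 4 comparisons, from edgeR's quasi-likelihood test, filled where the adjusted p was below 0.05. P2 cells lie at or left of 0 for all genes but *Igf1r* (and *Igfbp5* at 0.03) against CD324+ cells, and E18.5 cells lie right of 0 for 7 genes, with *Igfbp5* farthest at 7.09.

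E18.5 against E14.5 CD54+CD31- cells showed a rise of *Igf1*, *Igf1r*, and *Igfbp2*, 3, 5, 6, and 7 and a fall of *Igfbp4*. The 7 higher and 1 lower calls stand against 31.7% of 15863 genes higher, 38.8% lower, and 70.5% either way. The median log2 fold change was 2.53 over the members and -0.153 over all genes, and with the authors' library factors the median of all genes was 0.267 and the share of higher calls among all calls went from 45.0% to 60.9%, again with 7 members higher and 1 lower. Of 46 other pathway genes tested, 19 were higher, 14 lower, and 13 not called. All 7 tested genes of the list of IGFBP proteases and their inhibitors were higher: *Pappa2* (37.9-fold), *Adamts1* (log2 fold change 3.58), *Mmp2* (10.2-fold), *Pappa* (8.26-fold), *Adam12* (6.04-fold), *Stc2* (5.25-fold), and *Stc1* (4.70-fold). *Socs2* (55.3-fold) and *Prlr*, the prolactin receptor gene (154-fold, with 5.11 to 45.1 CPM at E18.5), had the greatest rises among the other pathway genes, while *Igf2r* (4.21-fold), *Igf2* (4.02-fold), *Igfals* (3.81-fold), *Stat5a* (2.62-fold), the insulin-degrading enzyme gene *Ide* (2.58-fold), and *Stat5b* (2.41-fold) fell. *Ghr* (1.16-fold, edgeR adjusted p = 0.408), *Irs2* (1.08-fold, edgeR adjusted p = 0.643), and *Grb10* (1.82-fold lower, edgeR adjusted p = 0.0946) did not pass, and *Irs1* was 1.24-fold higher (edgeR adjusted p = 0.0461). Lung, mesothelial, and mesenchymal transcripts (*Reln* aside) were also higher at E18.5, and their part in these rises was not tested. The median hepatoblast marker at E18.5 was between 4.66% and 45.9% of its CD324+ mean. The median erythroid progenitor marker was at 1.17% to 4.16% of its P2 mean at E18.5 and at 10.5% to 19.4% in CD324+ libraries. The part of these cells in the falls was not tested. Within E18.5, *Igf1* and *Igfbp2* were lowest in replicate 1, at 0.689 and 0.214 times the mean of the others, where lung markers were at 2.10 times. *Igf1r*, *Igfbp5*, *Igfbp6*, and *Igfbp7* were highest in that library, and *Igfbp3* was at 0.938 times. Insulin itself, *Ins1* and *Ins2*, was at most 0.880 CPM in any library.

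Among 9287 genes with a mean of at least 10 CPM over the 12 libraries, the profile most like that of each member but *Igfbp1* was sought. The measure was the root mean square distance of centred log2(CPM + 1) values over the 12 libraries, a description over libraries that share depth and make-up. The neighbours of *Igfbp2*, *Igfbp3*, *Igfbp5*, and *Igfbp6* reached that mean mainly through E18.5 cells. For *Igfbp5* and *Igfbp6* these were *AU021092* (144 CPM at E18.5), *Tspan11* (105), *Ddr1* (93.0), and *Gprin3* (75.5). For *Igfbp2* and *Igfbp3* they were *Colec10* (50.2 CPM at E18.5), *Slc10a1* (53.3), *Trp53inp1* (40.6), and *Fgfr1* (24.9). The nearest to *Insr* was *Herpud1* (0.0894), to *Igf1r* *Hmha1* (0.171), to *Igfbp6* *Ddr1* (0.183), to *Igfbp3* *Trp53inp1* (0.191), to *Igfbp7* *Col4a2* (0.240), and to *Igf1* *Rnf217* (0.260). The nearest to *Igfbp5* was *AU021092* (0.311), to *Igfbp4* *Sh3bp5* (0.341), and to *Igfbp2* *Colec10* (0.430). The next were *Cpq* (0.172) for *Insr*, *Osbpl3* (0.18) for *Igf1r*, *Gprin3* (0.238) for *Igfbp6*, *Adgrg6* (0.273) for *Igfbp7*, *Fgfr1* (0.292) for *Igfbp3*, *A930011G23Rik* (0.312) for *Igf1*, *Tspan11* (0.363) for *Igfbp5*, *Pald1* (0.414) for *Igfbp4*, and *Slc10a1* (0.484) for *Igfbp2*. Among the members themselves *Igf1* and *Igfbp3* were closest, at 0.350, and all other pairs were at 1.06 or more.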

How the data were processed

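Fetal liver cells were sorted by surface markers, ribosomal sequences were removed enzymatically, and stranded total RNA libraries were made. Per the submitters' processing notes, cutadapt 1.11, STAR 2.5.0a, featureCounts 1.4.6-p3, R 3.5.1, and DESeq2 were used with mm10/GRCm38. The authors deposited raw counts per gene and a score, each count scaled by 1 library factor and rounded. The counts (40714017 to 64368883 per library) were tested, and the score served only to read the authors' factors. At this depth the 3 libraries per population limit precision, except for genes of few counts (*Igfbp2* and *Igfbp6* in P2 cells), where counting error adds to it. Replicate pairs differed by more than counting noise (the least chi-square over its degrees of freedom was 38.6).

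Tests used edgeR 4.0.16 in R 4.3.3 (TMM factors over 12 libraries, filterByExpr, quasi-likelihood test, Benjamini-Hochberg). The 9 E14.5 libraries entered 1 fit (15461 genes) and the 6 CD54+CD31- libraries another (15863 genes), with population or age as the only factor. The SE is the log2 fold change divided by the square root of F. The test scripts were run on simulated data in which few genes changed, so scaling where most genes change was not tested by them. Exon lengths and positions came from GENCODE vM21 (37932 of 38127 identifiers), and sequences from RefSeq (GRCm38.p6). Levels per kilobase take all counts of a gene as exonic, which was not tested. A single gene held up to 13.34% of a library (*Cdk8*), and why was not tested. Alternatives were DESeq2 1.42.0, other scalings and filters, other sets of libraries, and each library left out.

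The members and lists were chosen with earlier results of these data known. All members are named, with *Igf2*, *Igf2r*, *Igfals*, *Ghr*, *Irs1*, *Irs2*, *Pappa*, *Pappa2*, *Stc1*, *Stc2*, and *Grb10*, up to 3 further pathway genes per direction and comparison with the greatest called folds and no overlap, and 2 profile neighbours per member, except that those of *Igfbp1* are not reported here. *Mmp2*, *Ins1*, *Ins2*, *Cdk8*, the genes at 0 counts in every library, and the markers *Mrc1*, *Reln*, *Pdgfrb*, and *Col1a1* were added after their values were seen. The deviation from the population mean correlated across genes between libraries of the same number, at 0.342, 0.263, and 0.127 between CD31+ and CD324+ cells. Replicate numbers (from the labels) were taken to pair these, but the printed folds, SE, and p-values come from fits without that pairing. Only the alternative with the replicate number as a block used it. P2 and CD31+ cells reached 0.339 for replicate 3 and were not taken as paired. Correlations between different numbers were not computed, so the pairing of CD31+ and CD324+ libraries was assumed and not tested.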

Additional observations from a re-analysis of the deposited data

How the results depend on the processing

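Over 623 alternative fold changes of the members, 603 kept direction and side of the threshold, 17 lost the call, 3 gained it, and 0 reversed a called direction. The lost calls were those of *Igfbp1* and *Igfbp6* between P2 and CD31+ cells and of *Igfbp4* and *Igfbp2* between CD31+ and CD324+ cells. With at least 10 counts required in every library, 8 members were tested at E14.5 and 2, not 4, were called lower in CD31+ than in CD324+ cells, because the filter removed *Igfbp2* and *Igfbp6*. With the replicate block 10937 genes were called for P2 against CD324+, 11441 for P2 against CD31+, 10310 for CD31+ against CD324+, and 10564 for E18.5 against E14.5, and the block changed no call of a member. Outside the CD31+ and CD324+ comparison, replicate numbers were not taken to pair libraries. Same-number correlations there ranged from -0.0237 to 0.339, with at least 1 below 0.1 in each comparison. Correlations between different numbers were not computed, so these values do not decide whether libraries were paired.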
